A study of Mus musculus with 8 samples.

Results

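The focal adhesion core genes described here are 10 genes, Tln1, Tln2, Vcl, Ilk, Parva, Lims2, Ptk2, Pxn, Zyx and Tns1. They were taken by symbol from a table of 22274 genes and not by their values, though with earlier results of these data known. They were measured by RNA-seq in primary murine cardiac fibroblasts, the matrix-producing cells of the heart, kept in culture. There were 4 libraries labelled GFP, the control vector, and 4 labelled OEIRF7, in which the transcription factor IRF7 was to be overexpressed. Both groups were treated with TGF-β, a cytokine that turns fibroblasts into contractile myofibroblasts, at 5 ng/ml for 24 h in the study's methods. No library without TGF-β was analysed here. The study's methods name adenovirus, whose IRF7 construct carries the human sequence behind a viral promoter, while the series' design text names an adeno-associated virus, and the table does not settle which was used. The strain of the cultured cells is not given in the sources used here beyond the C57BL/6 J background of the study's mouse strains, nor are the age and number of the mice or any pooling. The legend for this experiment gives fewer biological replicates than the 4 libraries per group analysed here, without saying which libraries they were. Nothing in the labels says that libraries came from separate cultures, so the p-values measure the spread between these libraries, which may be technical.

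Focal adhesions are the sites at which integrins, the receptors for extracellular matrix, are tied to actin stress fibres. Talin binds the integrin tail and actin, vinculin strengthens that link under load, and the scaffold of integrin-linked kinase, PINCH and parvin holds a second route to actin. Focal adhesion kinase and paxillin carry signals from the site, and zyxin and tensin gather in mature adhesions on stress fibres. In fibroblasts that become myofibroblasts these adhesions enlarge together with the contractile apparatus.

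Of the 10 core genes, 8 were lower in the libraries labelled OEIRF7, none was higher, and Ilk and Pxn did not pass the test, with a median log2 fold change of -0.50 (edgeR quasi-likelihood test, adjusted p under 0.05). Of all 13533 genes tested, 58.9% passed in either direction, 29.9% as lower and 29% as higher, and their median log2 fold change was 0.00. With a fold of at least 1.5 in addition, 4 core genes remained, Lims2, Vcl, Tln2 and Parva, all lower, against 9.64% of all genes tested as lower and 9.26% as higher. All 10 passed the filter on low counts. Normalised counts (CPM, counts scaled by library size) of the groups did not overlap for 8 of the 10, against 53.8% of all genes tested, and each of these 8 reached 0.029 in an exact two-sided permutation test, the smallest p that 4 against 4 libraries allow. The RNA was read from whole cultures, so fewer cells with a transcript and less of it per cell cannot be told apart.

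Total counts were 24888589 to 27095611 per library (median 25848640) for GFP and 24454801 to 28658826 (median 25439278) for OEIRF7. The rarest core gene, Lims2, rested on 137 to 443 counts in a library, and each of the others on at least 1861. Mouse Irf7 did not check the labels, since 2861, 3680, 2272 and 3291 counts under the label GFP stood against 385, 421, 380 and 404 under OEIRF7, opposite to the name of the group, and a human transcript was not analysed here. All directions below therefore refer to the labels. All 11 fibroblast markers were at or above 1 FPKM (fragments normalised for transcript length and library size), their summed level being 4232 to 4320 for GFP and 4034 to 4258 for OEIRF7. Of 10 cardiomyocyte markers only Tnnt2 reached 1 FPKM, and Myl3 was listed at 0 in every library. The summed FPKM of markers was higher in OEIRF7, without overlap, for endothelial cells (8 of 8 markers at 1 FPKM, 75.8 to 79.8 against 80.3 to 87.0), macrophages (8 of 8, 198 to 234 against 237 to 273) and mural cells (3 of 8, 9.20 to 10.5 against 11.1 to 14.0). It was lower, again without overlap, for epicardial cells (5 of 8, 57.1 to 59.5 against 46.5 to 53.3). Single markers did not all follow these sums. Of 11 fibroblast markers tested, 2 were higher and 6 lower, with a median log2 fold change of -0.16 and a lowest of -1.33. Of all genes tested, 29% were higher and 29.9% lower. The 1 cardiomyocyte marker tested was lower, at -0.54. Of 7 epicardial markers tested, 2 were higher and 3 lower, with a median log2 fold change of 0.19. Of 6 mural markers tested, 3 were higher and 2 lower. Among 8 endothelial markers 3 were higher and 1 lower, and among 8 macrophage markers 3 were higher and 0 lower. The part of these cells in the results on the core genes was not tested.

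The start region of Vcl is shown because, of the 5 core genes with an entry in the RefSeq promoter table (Tln1, Vcl, Ilk, Zyx and Tns1), it is the only member that holds a CArG box, the element bound by serum response factor (SRF), a regulator of actin cytoskeleton genes. The window runs from 250 bases before the start to the first 50 bases of the gene, GRCm38.p6, chr14:20929148-20929447, plus strand. Capitals mark the CArG box, whose first base lies at -227 from the start.
Vcl: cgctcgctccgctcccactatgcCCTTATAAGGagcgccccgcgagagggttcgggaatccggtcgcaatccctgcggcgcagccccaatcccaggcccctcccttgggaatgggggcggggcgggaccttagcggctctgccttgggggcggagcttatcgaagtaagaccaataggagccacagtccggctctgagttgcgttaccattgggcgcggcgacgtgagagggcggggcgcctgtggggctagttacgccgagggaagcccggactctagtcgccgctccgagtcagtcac
The CArG box was found in 1.63% of all 32851 windows of this length. The interferon-stimulated response element (ISRE), to which interferon regulatory factors bind, was in none of the 6 windows of the 5 core genes and in 3.44% of all windows. GGAATG, a word bound by TEAD factors, was in the Vcl window (14.7% of all windows), and TGANTCA, the AP-1 word, was in the Zyx window (7.81% of all windows). All motifs were read on both strands, and these matches in the Vcl window do not overlap. A match is a description of the letters only, and binding was not measured in these libraries.

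**Figure D1:**
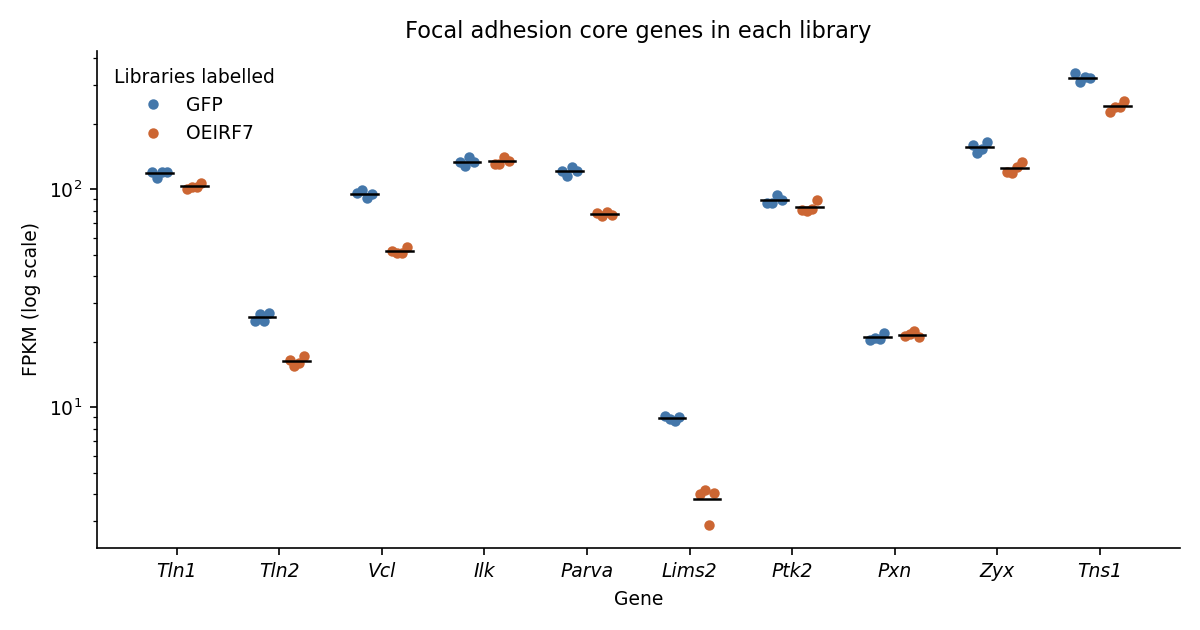
Level of each of the 10 core genes in each library (FPKM, log scale). Points are single libraries and bars are group means, with 4 libraries labelled GFP (blue) and 4 labelled OEIRF7 (orange). The groups are apart for Tln1, Tln2, Vcl, Parva, Lims2, Zyx and Tns1, and overlap for Ilk, Pxn and Ptk2.

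Compared per length, Tns1 was the most abundant core gene in both groups and Lims2 the least. In the GFP libraries the order of mean FPKM was Tns1, Zyx, Ilk, Parva, Tln1, Vcl, Ptk2, Tln2, Pxn and Lims2, in which the ranges of Parva and Tln1, and those of Vcl and Ptk2, overlapped. In the OEIRF7 libraries it was Tns1, Ilk, Zyx, Tln1, Ptk2, Parva, Vcl, Pxn, Tln2 and Lims2, in which only the neighbours Ilk and Zyx overlapped. Parva and Vcl thus stood below Ptk2, and Tln2 below Pxn, in the libraries labelled OEIRF7.

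The talins couple the β integrin tail to actin. Tln1 (chromosome 4, 43531519 to 43562691, minus strand, GRCm38 as for all genes below), the ubiquitous talin, had FPKM of 120.28, 113.11, 120.19 and 120.55 in the GFP libraries and 100.32, 102.80, 103.09 and 106.98 in the OEIRF7 libraries. Every OEIRF7 library was below every GFP library, by a small step: the log2 fold change was -0.23 (SE 0.031, edgeR adjusted p = 1.86e-05), and 27.5% of all genes tested fell at least as much. Tln2 (chromosome 9, 67217087 to 67559703, minus strand), the talin enriched in muscle and brain, had FPKM of 24.98, 26.75, 24.97 and 27.14 against 16.54, 15.48, 15.98 and 17.22. The groups of Tln2 lay far apart relative to their spread, at 62.8% of the GFP mean, with a log2 fold change of -0.74 (SE 0.040, edgeR adjusted p = 9.88e-10).

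Tln2 thus made up a smaller part of the talin transcripts in the libraries labelled OEIRF7. Its share of the summed talin FPKM was 17.2%, 19.1%, 17.2% and 18.4% for GFP and 14.2%, 13.1%, 13.4% and 13.9% for OEIRF7. All 4 shares were below all 4 of GFP, a difference of -4.34 percentage points (exact two-sided permutation p = 0.029, also after adjustment over the 6 families compared). The summed talin FPKM was 144 ± 3.30 (SD, n = 4) against 120 ± 3.20 (SD, n = 4).

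Vcl (chromosome 14, 20929398 to 21033676, plus strand) encodes vinculin, which binds stretched talin and actin. Its FPKM was 96.26, 99.01, 91.57 and 95.74 in the GFP libraries and 52.18, 50.90, 51.13 and 54.39 in the OEIRF7 libraries. No OEIRF7 library came near the lowest GFP library, and the mean was 54.5% of that of GFP. The log2 fold change was -0.91 (SE 0.032, edgeR adjusted p = 1.88e-11), a fall that 4.80% of all genes tested equalled or exceeded. Vcl shares 2235 bases with Ap3m1 on the opposite strand, whose log2 fold change was -0.29, and the strand setting of the counting is not given in the sources used here.

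Vcl and its binding partner Tln1 fell by unequal steps. The ratio of Vcl to Tln1 FPKM was 0.800, 0.875, 0.762 and 0.794 in the GFP libraries and 0.520, 0.495, 0.496 and 0.508 in the OEIRF7 libraries. This ratio and 3 others below were chosen after the values were seen and are given without a test. The groups do not overlap, and the OEIRF7 mean was 0.625 of the GFP mean.

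Ilk (chromosome 7, 105736592 to 105742925, plus strand) encodes integrin-linked kinase, the scaffold on which PINCH and parvin assemble. Its FPKM was 133.15, 128.34, 140.85 and 133.99 for GFP and 131.50, 131.25, 141.58 and 135.34 for OEIRF7. The groups overlapped over nearly their whole range, and the log2 fold change was -0.01 (SE 0.038, edgeR adjusted p = 0.786, exact permutation p = 0.83). Ilk shares 3533 bases with Taf10 and 794 bases with Rrp8 on the opposite strand, and Taf10 had a log2 fold change of 0.22.

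Parva (chromosome 7, 112427505 to 112591692, plus strand), the α-parvin that ties this scaffold to actin, had FPKM of 121.91, 114.76, 126.44 and 121.72 against 78.10, 75.50, 78.56 and 76.44. The OEIRF7 libraries were tightly grouped, well below GFP, and the log2 fold change was -0.73 (SE 0.029, edgeR adjusted p = 5.71e-11). Parva per Ilk was 0.904 ± 0.00983 (SD, n = 4) in the GFP libraries and 0.572 ± 0.0167 (SD, n = 4) in the OEIRF7 libraries, without overlap. Parva was nearly all of the parvin FPKM, 97.2% ± 0.185 (SD, n = 4) for GFP and 95.2% ± 0.200 (SD, n = 4) for OEIRF7 (exact permutation p = 0.029), so the summed parvin FPKM was also lower, 125 ± 4.82 (SD, n = 4) against 81.1 ± 1.35 (SD, n = 4). The paralog Parvb, at 3.33 and 3.52 FPKM, had a log2 fold change of 0.05 that did not pass the test, and Parvg rose by 1.03 from a level of 0.190 FPKM.

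Lims2 (chromosome 18, 31922290 to 31958619, plus strand), the second PINCH protein, had the largest fold change of the 10 core genes. Its FPKM was 9.16, 8.85, 8.62 and 9.0 in the GFP libraries and 3.99, 4.18, 2.88 and 4.07 in the OEIRF7 libraries. OEIRF7 replicate 3 was the lowest, and even the highest OEIRF7 library was below the lowest GFP library. The log2 fold change was -1.29 (SE 0.088, edgeR adjusted p = 1.32e-08), which 2.07% of all genes tested equalled or exceeded as a fall. Lims2 shares 6640 bases with Gpr17 on the opposite strand, a gene with 158 counts in all libraries together against 2315 for Lims2. Gpr17 was lower too, with a log2 fold change of -0.89 (edgeR adjusted p = 0.044).

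Lims1, the main PINCH gene, differed far less than Lims2. Its FPKM was 49.61, 51.78, 51.86 and 52.15 against 48.12, 51.19, 48.35 and 47.67, ranges that overlap, with a log2 fold change of -0.11 (SE 0.034, edgeR adjusted p = 0.0149). That call was lost without TMM scaling, where the log2 fold change was -0.08 (adjusted p = 0.060), and on the FPKM scale. The share of Lims2 in the PINCH FPKM was 15.6%, 14.6%, 14.3% and 14.7% in the GFP libraries and 7.66%, 7.55%, 5.62% and 7.87% in the OEIRF7 libraries (exact permutation p = 0.029). PINCH per Ilk, Lims1 and Lims2 together, was 0.450 ± 0.0186 (SD, n = 4) against 0.391 ± 0.0252 (SD, n = 4), a smaller step than that of Parva per Ilk. The 3 genes outside the lists whose log2 CPM followed Lims2 most closely over the 8 libraries were Synpo, Fbxl7 and Pmp22, with Pearson r of 0.999, 0.999 and 0.998. The libraries fall into their 2 groups in each of them, with log2 fold changes of -1.26, -1.13 and -1.47, so these correlations describe mostly that difference.

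Ptk2 (chromosome 15, 73205102 to 73423280, minus strand) encodes focal adhesion kinase. Its FPKM was 86.26, 86.36, 94.50 and 89.58 against 80.55, 79.85, 81.57 and 89.33, and OEIRF7 replicate 4 lay inside the GFP range. The log2 fold change from counts was -0.17 (SE 0.042, edgeR adjusted p = 0.00254), with no overlap in CPM, but on log2(FPKM + 1) it was -0.11 and limma's adjusted p was 0.065. The relative kinase Ptk2b (Pyk2) rose, at 21.35, 19.38, 22.99 and 20.80 FPKM against 25.05, 25.71, 25.27 and 27.52, with a log2 fold change of 0.26 (SE 0.049, edgeR adjusted p = 0.000329). All 4 OEIRF7 libraries were above all 4 of GFP for Ptk2b. The share of Ptk2 in the sum of both went from 80.9% ± 0.688 (SD, n = 4) to 76.2% ± 0.364 (SD, n = 4) (exact permutation p = 0.029), while that sum, 110 ± 5.16 (SD, n = 4) and 109 ± 5.46 (SD, n = 4) FPKM, overlapped between groups.

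Pxn (chromosome 5, 115506676 to 115555987, plus strand) encodes paxillin, the adaptor on which focal adhesion kinase and vinculin dock. Its FPKM was 20.34, 20.89, 20.65 and 21.92 against 21.27, 21.66, 22.31 and 21.07. The groups overlapped, and the log2 fold change was 0.01 (SE 0.038, edgeR adjusted p = 0.766, exact permutation p = 0.57). Its paralog Tgfb1i1 (Hic-5), known as TGF-β-inducible, had 45.62, 46.68, 43.24 and 44.92 FPKM against 27.64, 29.13, 28.11 and 34.11. Tgfb1i1 fell in every OEIRF7 library relative to every GFP library, with a log2 fold change of -0.62 (SE 0.060, edgeR adjusted p = 4.82e-07). Pxn therefore had a larger share of the paxillin family, 41.1% ± 2.76 (SD, n = 4) against 31.2% ± 0.971 (SD, n = 4) for GFP (exact permutation p = 0.029), of a family total that was lower, 52.7 ± 2.88 (SD, n = 4) against 67.2 ± 1.54 (SD, n = 4) FPKM. Lpxn, at 1.16 and 1.34 FPKM, did not pass the test (log2 fold change 0.18). Ptk2 per Pxn was 4.26 ± 0.221 (SD, n = 4) against 3.84 ± 0.271 (SD, n = 4), with overlap.

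Zyx (chromosome 6, 42349630 to 42360213, plus strand) encodes zyxin, a LIM protein that brings Ena/VASP proteins to stress fibres under strain. Its FPKM was 160.55, 146.63, 152.70 and 164.30 against 120.19, 118.82, 127.32 and 132.95. The groups did not overlap, and the OEIRF7 mean was 80.0% of that of GFP in FPKM but 72.8% in CPM. The log2 fold change from counts was -0.46 (SE 0.042, edgeR adjusted p = 2.87e-07), and over the alternative fits it ran from -0.49 to -0.32. Zyx shares 1727 bases with Epha1 on the opposite strand, which had 135 counts in all libraries together against 62803 for Zyx.

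Tns1 (chromosome 1, 73910231 to 74124449, minus strand) encodes tensin 1, which binds integrin tails and actin in fibrillar adhesions. Its FPKM was 340.97, 310.01, 326.58 and 325.33 against 227.35, 239.47, 238.88 and 255.73. All OEIRF7 libraries were below all GFP libraries, with a log2 fold change of -0.54 (SE 0.029, edgeR adjusted p = 1.19e-09), and in absolute FPKM this was the largest step among the core genes. The other tensins did not fall past the test. Tns2 had a log2 fold change of -0.09 (edgeR adjusted p = 0.10), which passed only without OEIRF7 replicate 4, at -0.14. Tns3 had 0.11 (edgeR adjusted p = 0.0374), a call lost without GFP replicate 1, 3 or 4 or without OEIRF7 replicate 3, where it was 0.06. Tns4 rose by 0.74 from 1.44 FPKM. The share of Tns1 in the tensin FPKM went from 80.4% ± 0.693 (SD, n = 4) to 73.8% ± 0.945 (SD, n = 4) (exact permutation p = 0.029).

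**Figure D2:**
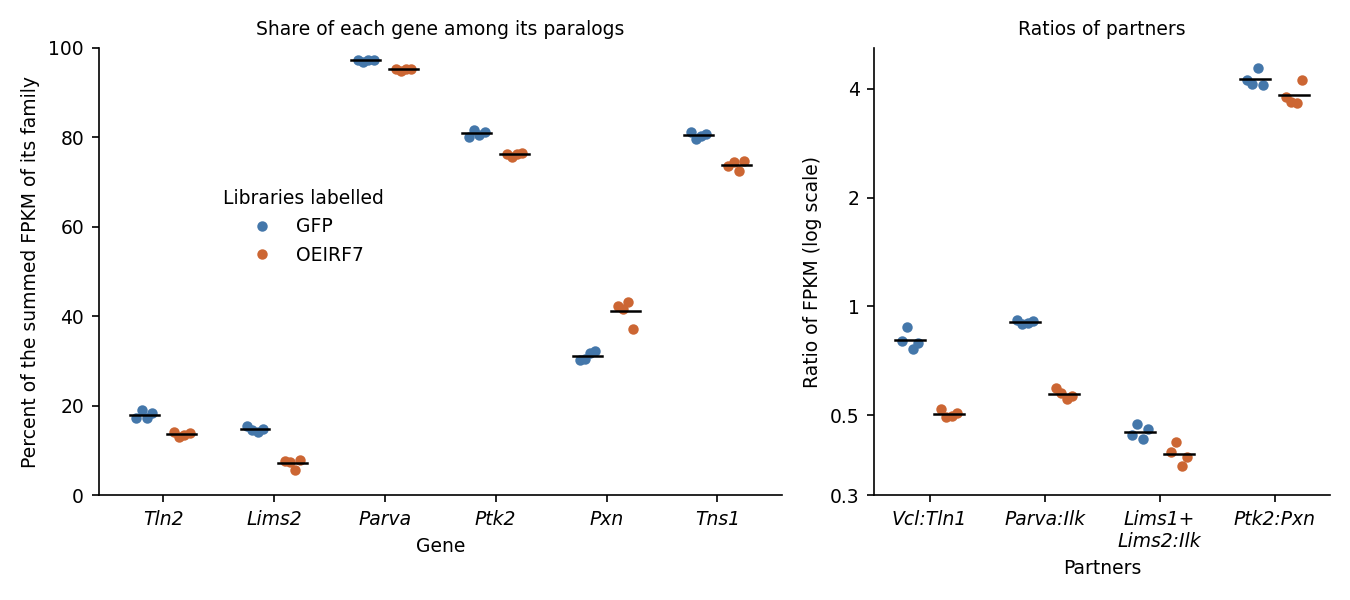
Share of 6 core genes in the summed FPKM of their paralog families (left, percent) and ratios of FPKM between binding partners (right, log scale). Points are the 4 libraries of each label and bars are means. The share is lower in OEIRF7 for Tln2, Lims2, Parva, Ptk2 and Tns1 and higher for Pxn. The ratio Ptk2:Pxn overlaps between the labels, and Vcl:Tln1, Parva:Ilk and Lims1+Lims2:Ilk do not.

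Of the 6 shares 5 were lower and 1 higher in OEIRF7. Such shares were not computed for other gene families, and CPM did not overlap between the labels in 53.8% of all genes tested. Nothing particular to these families is read from their separation. The kindlins, which activate integrins beside talin and are not core genes here, did not follow the talins. Fermt2, the kindlin of fibroblasts at 79.7 and 83.4 FPKM, had a log2 fold change of 0.05 and did not pass the test, nor did Fermt3 (0.09). Fermt1 rose by 1.88, from 0.200 to 0.752 FPKM.

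**Figure D3:**
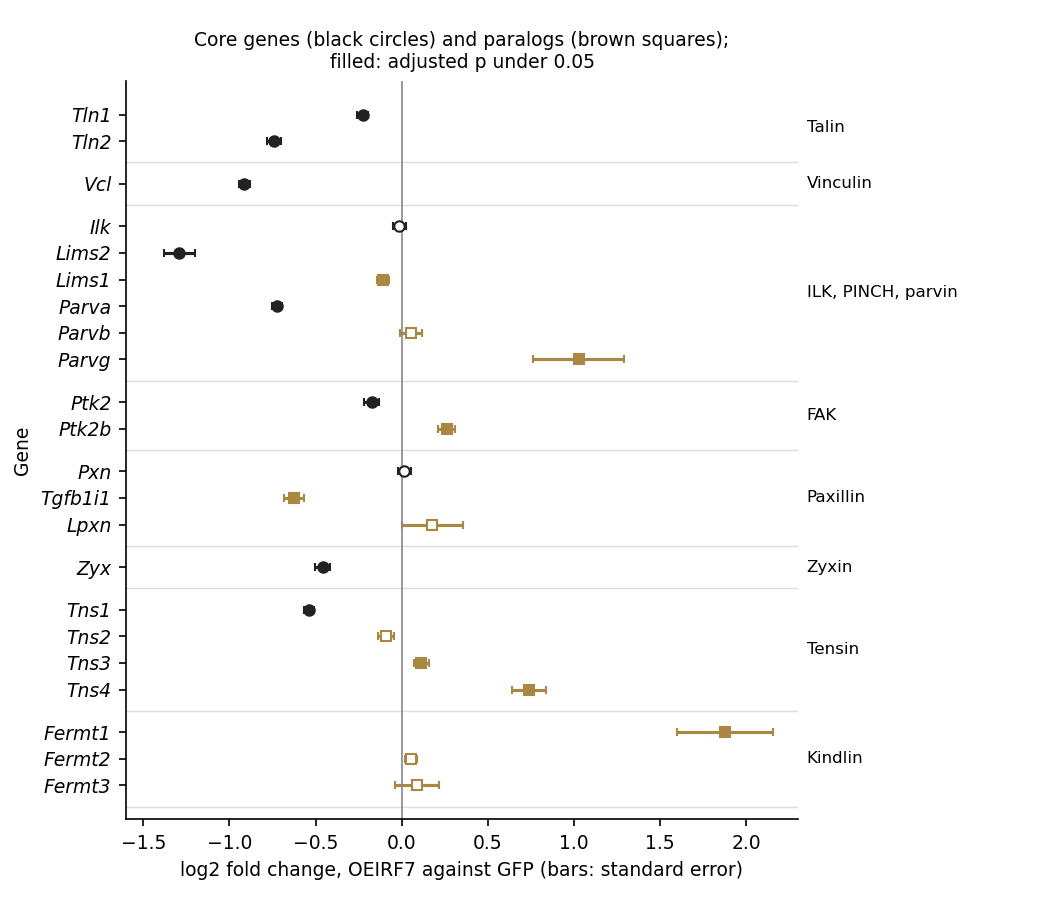
Log2 fold change of OEIRF7 against GFP with its standard error for the 10 core genes (black circles) and 12 paralogs (brown squares), by family. Filled symbols have an adjusted p under 0.05. No core gene lies to the right of 0 with a filled symbol, while Parvg, Ptk2b, Tns3, Tns4 and Fermt1 do among the paralogs.

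Other genes of the adhesion machinery moved both ways. Of 62 further adhesion genes 61 were tested, of which 20 were higher, 28 lower and 13 did not pass, with a median log2 fold change of -0.02. The group that links adhesions to actin was mostly lower, 10 of 11 genes falling and Enah alone rising (0.55), with a median of -0.41. Within it Sorbs2 (-1.45) and Sorbs3 (-0.70), adaptors that bind vinculin, fell, as did the actin-binding protein Nexn (-1.04) and the Ena/VASP protein Evl (-0.85). Sorbs2 had 7.86, 7.56, 5.58 and 5.78 FPKM against 1.69, 2.88, 1.84 and 2.84, and Nexn had 33.98, 43.40, 32.96 and 37.94 against 18.22, 21.61, 16.10 and 18.93. Neither overlapped between groups. Smaller falls in this group were those of Actn1 (-0.41), Actn4 (-0.39), Vasp (-0.37) and Flna (-0.29), named after their values were seen.

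The kinases and adaptors around focal adhesion kinase were spread to both sides, 10 of 18 higher, 7 lower and 1 not called, with a median of 0.11. Pak1, a kinase downstream of Rac, rose by 0.90, and Asap1, an Arf GTPase-activating protein, fell by 0.74. Among 10 zyxin relatives and other LIM proteins 2 were higher, 4 lower and 4 not called. Lpp, a relative of zyxin, fell by 0.76, while Limd1 rose by 0.16, and Trip6 (0.05) and Ajuba (0.04) did not pass the test. Tes, the LIM protein testin, rose by 1.22, from 10.32, 10.78, 11.93 and 11.09 FPKM to 24.85, 26.96, 28.20 and 24.52. Of 7 genes of adhesion turnover, among them the calpains, 3 were higher, 2 lower and 2 not called, and of 3 Kank genes tested 2 were lower. Counting a fold of at least 1.5, 8 of the 61 were lower, among them Sorbs2, Sorbs3, Nexn, Evl, Asap1, Lpp and Tgfb1i1, and 5 higher (Fermt1, Parvg, Tns4, Pak1 and Tes).

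The integrins that these adhesions are built on were divided. Of 17 tested of 18, 7 were higher, 7 lower and 3 not called, with a median log2 fold change of 0.01. The higher ones past 1.5-fold were Itga2 (2.75), Itgb3 (1.68), Itga5 (1.45) and Itga7 (0.79), and the lower ones Itga1 (-1.28), Itga3 (-1.07), Itga11 (-0.94), Itgb8 (-0.86) and Itga8 (-0.85). Itga5, the fibronectin receptor chain, went from 65.1 ± 5.65 (SD, n = 4) to 181 ± 9.20 (SD, n = 4) FPKM. Itga8 and Itgb8 were at or below about 1 FPKM in both groups. Itga2 and Itgb3 also rose from low levels, from means of 1.10 and 2.1 FPKM in GFP to 7.61 and 6.93 in OEIRF7.

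Of the 203 genes that the table assigns to the KEGG focal adhesion pathway, 185 were tested. Of these, 61 were higher, 83 lower and 41 not called, with a median of -0.09. The pathway holds 8 of the core genes, not Lims2 or Tns1, and without them the counts were 61 higher and 77 lower of 177, with a median of -0.05. At least 1.5-fold changes were 27 higher and 34 lower of the 185. Matrix genes of the pathway also went both ways: Thbs2 (-1.44) and Col6a1 (-1.52) fell, and Tnc (0.96) and Spp1 (0.88) rose, all named after their values were seen.

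Contractile genes, whose fibres end at these adhesions, fell in 13 of 14 cases, with a median of -0.58, and Smtn rose by 0.44. Acta2, the smooth muscle actin of myofibroblasts, fell by 1.83 on the log2 scale, Tagln by 0.98, Myl9 by 2.49, Tpm2 by 1.36 and Myh10 by 0.77. Cnn1 (-1.30) and Lmod1 (-2.69) fell from low levels of 2.93 and 1.28 FPKM. The core genes, with a median of -0.50, lay between these and the median of the other adhesion genes.

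**Figure D4:**
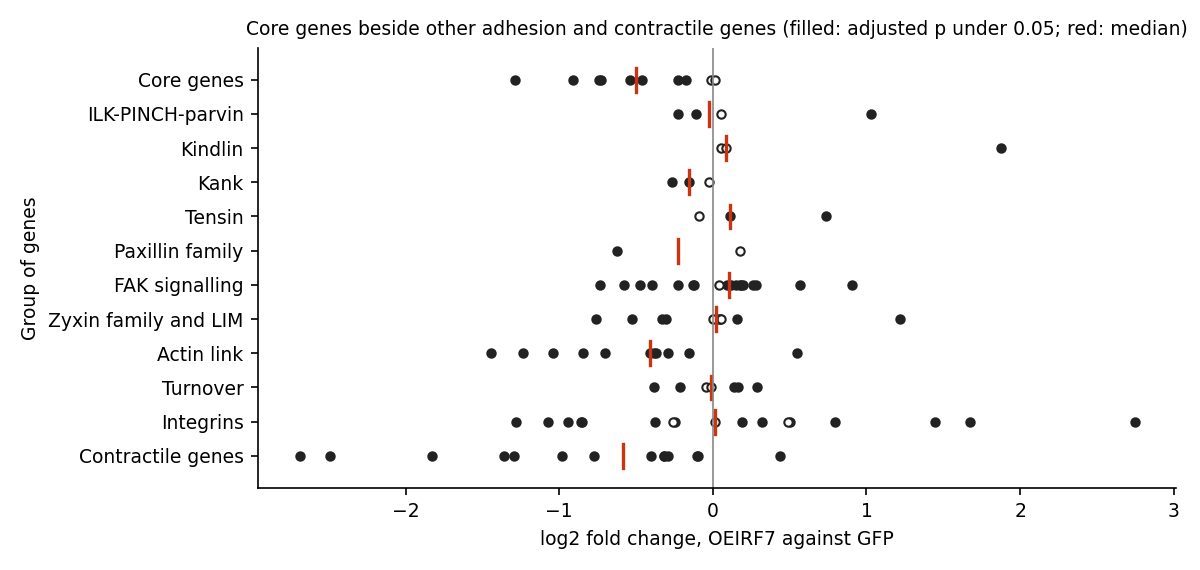
Log2 fold change of OEIRF7 against GFP for the core genes, the other adhesion genes by role, integrins and contractile genes. Each point is a gene, filled where the adjusted p is under 0.05, and red bars are medians. The core genes and the actin link group lie mainly left of 0, medians -0.50 and -0.41, while FAK signalling genes and integrins spread to both sides.

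SRF and its cofactors, which act on CArG boxes, differed little or were rare. Srf had 15.6 ± 1.39 (SD, n = 4) against 14.1 ± 1.84 (SD, n = 4) FPKM and a log2 fold change from counts of -0.23 (SE 0.059, edgeR adjusted p = 0.0034), which did not pass on log2(FPKM + 1), at -0.13 (limma adjusted p = 0.23). Mrtfb fell by 0.19 (edgeR adjusted p = 0.00173). Mrtfa had 0.14 (edgeR adjusted p = 0.0409), a call lost with a minimum of 1 count in total and on leaving out GFP replicate 1 or 2 or OEIRF7 replicate 1, 3 or 4, with 0.09 without GFP replicate 2. Myocd, at 0.527 and 0.255 FPKM, fell by 0.87. The CArG box was in 2 of 12 contractile genes with a window (Actg1 and Myl9), 3 of 51 other adhesion genes (Fermt2, Rsu1 and Trip6) and 1 of 15 integrins (Itgb6), beside 1 of 5 core genes. These are counts of genes, and a gene can have several windows, while the 1.63% given above is a share of windows. No share over all genes was computed, so nothing is read from these counts.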

How the data were processed

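Read counts of 8 libraries were analysed, 4 per label. The authors trimmed reads with Trimmomatic, mapped them to GRCm38 with HISAT2, used HTSeq-count for the reads of each gene and deposited the raw counts, not normalized. They also deposited FPKM from Cufflinks, scaled for gene length and depth. Extraction and library kits are named differently in the labels and in the paper. Tool versions and the strand setting are not given in the sources used here. The authors' own comparison, held as group means, log2 ratio, p-value and FDR, was not used.

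Counts were tested in R 4.3.3 with edgeR 4.0.16 (filterByExpr, TMM, glmQLFit, glmQLFTest, no covariates), with Benjamini-Hochberg adjustment over the 13533 genes that passed, as called at an adjusted p under 0.05. TMM factors lay between 0.989 and 1.01. The standard errors (SE) given with edgeR values were derived from the test, as the absolute log2 fold change divided by the square root of its F statistic. Log2 CPM used a prior count of 2. Shares of paralogs were computed per library from FPKM and compared by an exact two-sided permutation test. FPKM was tested as an alternative with limma 3.58.1, with a pseudocount of 1 or 0.1 FPKM before the log2, where the mean reached 0.1 FPKM. DESeq2 1.42.0, other scalings and filters, and leaving out each library were further alternatives. No replicate pair agreed within counting noise (chi-square per degree of freedom 2.69 to 8.67). Coordinates came from GENCODE. A separate reference of gene symbols held 22219 of 22274 identifiers, and 3816 genes had no count. The main edgeR fit, DESeq2 and limma on depth-scaled counts with a pseudocount of 1 were tried on simulated counts. The other alternatives were not.

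The members and lists were chosen with earlier results of these data known. Named were all core genes, their paralogs, SRF and its cofactors, Irf7, the 3 genes most like the core gene with the largest change and, of the other lists, genes past an adjusted p of 0.05 and a fold of 1.5, not all of which are reported here. Genes named otherwise were chosen after their values were seen. Lists are described by counts and medians, with no set test.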

Additional observations from a re-analysis of the deposited data

Results flagged for a closer look

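One value stood far from the others of its group. The share of Lims2 in the PINCH FPKM was 5.62% in OEIRF7 replicate 3 against 7.55% to 7.87% in the other OEIRF7 libraries, a gap of 0.859 of the whole range of that group. Of 40 groups of 4 examined, chance alone gives about 1 in 20 such gaps.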

How the results depend on the processing

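Of 16 alternatives, each of the 8 lower core genes kept its direction in all, and 7 of them their call; Ptk2 lost it in both limma fits on FPKM, where the count of lower core genes was 7. The 4 genes past 1.5-fold numbered 4 throughout. Ranges over the alternatives were -0.93 to -0.86 for Vcl, -1.35 to -1.06 for Lims2, -0.76 to -0.64 for Tln2 and -0.73 to -0.64 for Parva. Ilk and Pxn, near 0, changed sign without any call: Ilk was 0.0136 without TMM, 0.00900 and 0.00906 in limma on FPKM with a pseudocount of 1 and 0.1, 0.00657 without GFP replicate 3 and 0.00282 without OEIRF7 replicate 1 (range on leaving out any library -0.0410 to 0.00657), and Pxn was -0.00384 without GFP replicate 1 and -0.00256 without OEIRF7 replicate 3 (range -0.00384 to 0.0362). On log2(FPKM + 1), whose pseudocount shrinks low genes, counts past 1.5-fold were 2 instead of 5 higher adhesion genes, 20 instead of 34 lower KEGG genes and 3 instead of 5 lower integrins. All-gene calls were 7402 to 8211, of which 44.7% to 51.0% were lower.

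Libraries of the same number deviated together by correlations of 0.079 to 0.138, over 0.1 in 2 of 4 pairs, so the numbers were not taken to pair samples, although 8 of 8 libraries correlated best with their own number, a hint from the data. The replicate block gave 8211 calls against 7969. It changed no call of a named gene. For shares, the mean of the paired differences equals the difference of the group means, so the block could not change their direction. Sign flips of 4 differences cannot go below 0.125. Shares kept their direction in CPM. Leaving out any library could not reverse a share, since no share overlapped between the labels, and no exact p can then go below 0.057. Lims2 rested on 137 to 443 counts per library. The cause of these changes was not tested.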
